A study of Homo sapiens with 62 samples.

Results

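MALAT1 and NEAT1, which are long RNAs held in the nucleus, and the snoRNA host genes SNHG8 and ZFAS1 were measured by SLAM-seq in 2 human pancreatic ductal adenocarcinoma (PDAC) lines. They are the 4 genes with a row among 10 listed by name, out of 29794 genes in the tables of each line. The other 6 (GAS5, SNHG1, SNHG5, SNHG6, SNHG12 and SNHG15) had no row and were not analysed here. All 4 genes with a row lie on the plus strand of the genome and all 6 without one lie on the minus strand. Of the 9565 plus-strand lncRNA names in the reference annotation 30.1% had a row, against 0.291% of 9283 minus-strand names, while protein-coding names had one in 95.4% and 95.6% of cases. The cause of this difference was not tested.

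MALAT1 is a long, mostly unspliced RNA of nuclear speckles, and NEAT1 is the RNA around which paraspeckles are built. SNHG8 and ZFAS1 belong to a class of genes whose introns carry small nucleolar RNAs (snoRNAs). The snoRNA is trimmed out of the intron and guides the chemical modification of ribosomal RNA, whereas the spliced exons leave the nucleus and often decay quickly. Many host genes of this class start at a pyrimidine run, as ribosomal protein genes do, and are transcribed at a high rate. CDK9 is the kinase that lets paused RNA polymerase II move into the gene body. RUVBL1 and RUVBL2 are ATPases that take part in assembling box C/D snoRNA particles, besides other complexes. KLF5 is a transcription factor of epithelial cells.

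Newly made RNA was marked with 4-thiouridine (4sU) for 2 h at 500 µM, and after alkylation such RNA gives reads with T>C conversions, which is the principle of SLAM-seq. In both lines endogenous KLF5 had been replaced by a copy with an FKBP12 degron tag, so every group described here carried it, controls included. AsPC-1 served as the model of classical PDAC and T3M-4 as the basal-like model, 1 line for each subtype. The degrader dTAGv-1 (dTAG) was compared with its inactive analogue dTAGv-1-NEG (NEG) after 4 h, with 10 libraries each in AsPC-1 and 4 each in T3M-4. CB-6644, an inhibitor of RUVBL1/2, was compared with DMSO after 4 h (5 libraries each in AsPC-1, 4 each in T3M-4) and after 12 h (4 each, AsPC-1). NVP-2, an inhibitor of CDK9, was given for 4 h to 4 libraries of each line and was likewise compared with DMSO. The labels number experiments and replicates within them, and libraries of 1 experiment may share a culture, so p-values measure the spread between these libraries.

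MALAT1 spans chr11:65497640-65508073 and NEAT1 chr11:65422774-65445540 of hg38, SNHG8 spans chr4:118278703-118285316 and ZFAS1 chr20:49278178-49299600. MALAT1 overlaps TALAM1, SNHG8 overlaps PRSS12, and ZFAS1 overlaps ZNFX1, each on the other strand, and whether the counting used strand is not given in the sources used here. The starts of 3 of the genes are shown because host genes of this class are known for their initiation sequence. Each window runs from 60 bases before to 50 bases from the RefSeq start (GRCh38.p14, plus strand), with TATAA between 40 and 20 bases before the start and CTTT at the start in capitals.
MALAT1, chr11:65497678-65497787: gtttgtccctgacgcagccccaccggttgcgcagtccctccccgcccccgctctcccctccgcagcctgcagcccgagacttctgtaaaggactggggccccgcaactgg
MALAT1, chr11:65498985-65499094: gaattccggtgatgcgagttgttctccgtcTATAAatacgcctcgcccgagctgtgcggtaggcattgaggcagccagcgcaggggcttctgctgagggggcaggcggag
SNHG8, chr4:118278702-118278811: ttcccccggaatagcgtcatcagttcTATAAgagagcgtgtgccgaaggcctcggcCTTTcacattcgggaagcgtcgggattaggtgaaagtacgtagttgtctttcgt
ZFAS1, chr20:49278582-49278691: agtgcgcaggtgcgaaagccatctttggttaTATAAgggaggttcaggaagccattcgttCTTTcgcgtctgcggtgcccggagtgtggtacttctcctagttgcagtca

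TATAA stood 34 bases before the start of SNHG8, 29 before that of ZFAS1 and 30 before the second start of MALAT1. It was found in that interval in 3.77% of 35116 RefSeq promoters on the gene's strand, and anywhere on either strand in 20.4% of them over 300 bases. CTTT was found from 5 bases before to 9 bases after the start in SNHG8 and ZFAS1, and in 6.34% of all promoters. Among the other long noncoding snoRNA host genes with a promoter sequence, 0 of 15 held TATAA in that interval and 3 held CTTT (SNHG16, SNHG32 and SNHG4). Among protein-coding host genes 5 of 22 held TATAA and 7 held CTTT. A match describes these letters only.

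The snoRNAs that SNHG8 and ZFAS1 carry in their introns are shown because they are the stable product of the hosts (hg38, plus strand). Capitals mark the ACA of SNORA24, an H/ACA snoRNA, and box C (TGATGA) and box D (CTGA) of the 3 box C/D snoRNAs.
SNORA24 (SNHG8), chr4:118279190-118279320: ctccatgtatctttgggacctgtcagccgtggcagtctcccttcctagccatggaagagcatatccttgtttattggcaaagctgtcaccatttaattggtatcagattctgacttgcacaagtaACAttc
SNORD12C (ZFAS1), chr20:49278940-49279028: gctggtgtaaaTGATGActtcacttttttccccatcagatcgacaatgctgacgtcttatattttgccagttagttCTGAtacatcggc
SNORD12B (ZFAS1), chr20:49280319-49280409: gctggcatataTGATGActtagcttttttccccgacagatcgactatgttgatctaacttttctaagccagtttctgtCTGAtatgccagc
SNORD12 (ZFAS1), chr20:49280683-49280772: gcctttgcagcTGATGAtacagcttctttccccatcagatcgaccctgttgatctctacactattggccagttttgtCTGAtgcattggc

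Their own rows held few reads in these oligo(dT)-primed libraries: 2022 for SNORA24, 474 for SNORD12C, 504 for SNORD12B and 135 for SNORD12 over the 61 usable libraries of all reads. The counts of SNHG8 and ZFAS1 are therefore read as those of the polyadenylated hosts, and snoRNA levels were not measured here.

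AsPC-1 libraries held 2240998 to 18311982 T>C reads and T3M-4 libraries 3714015 to 27982537, the lowest of them under NVP-2. Totals of all reads ran from 82676553 to 200298262 and from 111132257 to 244524608. Levels are given as CPM, read counts scaled to library size by TMM, and the labelled share is the percentage of a gene's reads that carry T>C conversions. Without unlabelled libraries or spike-ins, the T>C background and the absolute output of new RNA were not measured here. The classical markers summed to 224 to 508 CPM in AsPC-1 against 22.1 to 98.6 CPM in T3M-4, and the basal-like markers to 10.2 to 57.2 against 2030 to 5360 CPM, as the labels have it. TP63 had a median of 0 CPM in AsPC-1. The AsPC-1 libraries formed 3 sets of 17, 17 and 8 by all reads (1 dTAG library without usable all reads was placed by its T>C reads), the 8 being those of experiment 2 under the 4 h treatments other than NVP-2, and the other sets cut across the groups.

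MALAT1 differed between libraries of the same group. Over all treatments it took between 2.59% and 11.8% of all T>C reads of an AsPC-1 library (median 5.97%, n = 42) and between 1.89% and 10.9% in T3M-4 (median 4.96%, n = 20), with the lowest value of each line under NVP-2. Within the NEG libraries of AsPC-1 it took 4.49% to 10.4%, and within the DMSO 4 h libraries 5.66% to 11.8%. In the 10 NEG libraries of AsPC-1 its T>C level had a lowest value of 42295, a median of 52924 and a highest of 101796 CPM. In the DMSO 4 h libraries of AsPC-1 it was 79088, 52685 and 101985 CPM in experiment 1 and 100538 and 120413 CPM in experiment 2. In T3M-4 the NEG libraries held 109147 and 100610 CPM in experiment 1 against 54440 and 47219 CPM in experiment 2. These values did not overlap, but the share of all genes with such a gap was not counted.

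**Figure D1:**
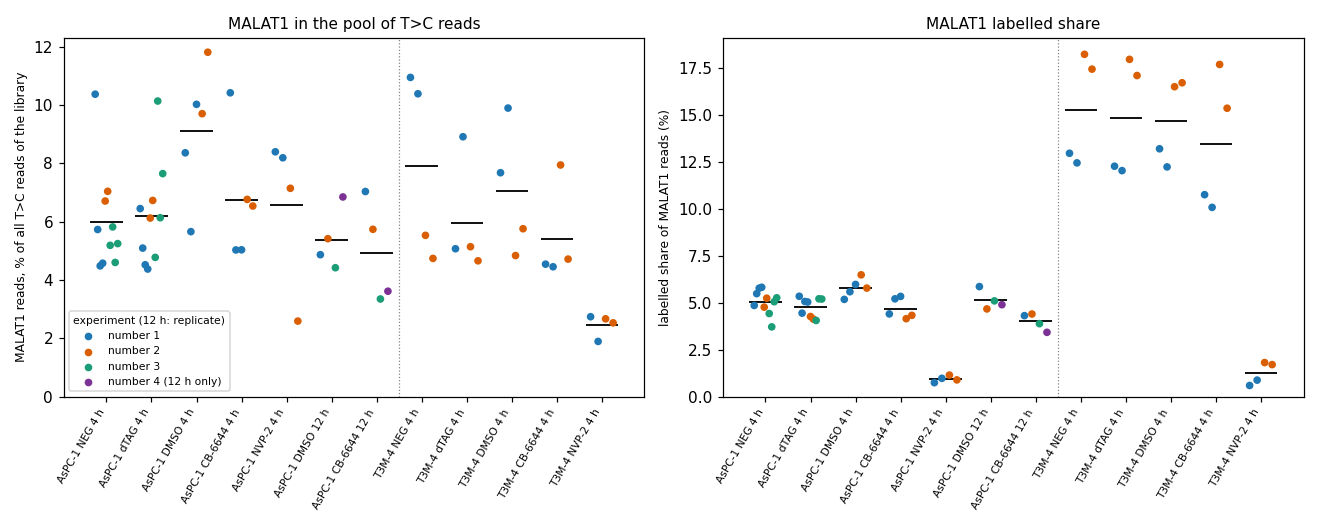
MALAT1 in every library, as its percentage of all T>C reads of the library (left) and as its labelled share in percent (right). Points are libraries coloured by experiment (by replicate number at 12 h), horizontal bars are group means and the dotted line divides AsPC-1 from T3M-4. The labelled share of the T3M-4 groups other than NVP-2 falls into 2 levels by experiment, 10.1% to 13.2% and 15.4% to 18.2%.

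Without NVP-2, the SD of MALAT1 within groups on the log2 scale of T>C CPM was 0.41 in AsPC-1, larger than that of 63.5% of 7694 genes (median gene 0.36). In T3M-4 it was 0.50, larger than that of 75.1% of 9186 genes (median 0.37). On the scale of all reads the spread stood out more: 0.46 in AsPC-1, above 78.5% of 11098 genes, and 0.78 in T3M-4, above 96.2% of 12198 genes. Most of the latter lay between experiments, since the SD within group and experiment was 0.33. The log2 labelled share of MALAT1 varied less, with an SD of 0.17 in AsPC-1, above only 18.5% of 7657 genes. In T3M-4 that SD was 0.31, above 63.9% of 9186 genes, and 0.07 within group and experiment.

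The T3M-4 experiments also differed in the level of MALAT1 in all reads. Outside NVP-2, experiment 1 gave 45519 to 108761 CPM and experiment 2 gave 30284 to 51200 CPM. In the NEG libraries of AsPC-1 the library sets had means of 144105 ± 50162 CPM (SD, n = 4), 79572 ± 4773 (SD, n = 4) and 126404 ± 3157 (SD, n = 2), but this order did not hold in the DMSO libraries. After 4 h of DMSO the first set had 136204 CPM (n = 2), the second 185731 (n = 1) and the third 171484 (n = 2), and after 12 h the first had 90834 and the second 103768 CPM (n = 2 each). NEAT1, SNHG8 and ZFAS1 were steadier in T>C reads, with SDs within groups of 0.33, 0.25 and 0.25 in AsPC-1 and of 0.38, 0.35 and 0.27 in T3M-4. In T>C reads a change in MALAT1 therefore has to exceed a wider spread than one in the snoRNA hosts. For the log2 labelled share this held against SNHG8, with SDs within groups of 0.14 in AsPC-1 and 0.21 in T3M-4. It did not hold against ZFAS1, with 0.22 and 0.35 beside 0.17 and 0.31 for MALAT1.

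Genes that varied with MALAT1 from library to library, as deviations of log2 T>C CPM from the group mean, were named by Pearson's r as a description. Over the 42 libraries of AsPC-1 they were KIFBP (0.79), MNAT1 (0.79), PLAC8 (0.79), CCAR1 (0.78) and TLK1 (0.77) of 8346 genes. In T3M-4, where the 20 libraries fall into 2 experiments, they were DEK (0.89), TFDP2 (0.88), RPL4 (0.87), RPS23 (0.87) and RACK1 (0.85) of 9391 genes. The values of ZFAS1 were 0.46 in AsPC-1 and 0.79 in T3M-4, those of SNHG8 0.23 and 0.51, and those of NEAT1 0.01 and −0.32, while the 95th percentile of all genes was 0.53 and 0.51. The points share library, depth and scaling.

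The 4 genes held the same order of labelled share in all 10 groups without NVP-2, with NEAT1 above SNHG8, then ZFAS1, then MALAT1. In AsPC-1 under DMSO for 4 h, 31.4% ± 3.64 of NEAT1 reads, 24.8% ± 2.16 of SNHG8 reads, 14.7% ± 2.56 of ZFAS1 reads and 5.80% ± 0.48 of MALAT1 reads were labelled (SD, n = 5). These exceeded the shares of 91.0%, 82.7%, 54.5% and 14.6% of 6874 genes (median gene 13.5%). In T3M-4 under DMSO the shares were 53.4% ± 1.53 for NEAT1, 38.4% ± 2.90 for SNHG8, 24.0% ± 3.19 for ZFAS1 and 14.7% ± 2.28 for MALAT1 (SD, n = 4), above 96.3%, 90.6%, 73.1% and 46.9% of 8153 genes (median gene 15.4%). In T3M-4 the ranges of the 4 genes did not touch, whereas in AsPC-1 the lowest NEAT1 library (28.22%) lay just below the highest SNHG8 library (28.25%) and the other ranges were apart. The canonical transcripts hold 31.7% T in NEAT1 and SNHG8, 30.6% in ZFAS1 and 29% in MALAT1, and the part of base composition in this order was not tested.

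**Figure D2:**
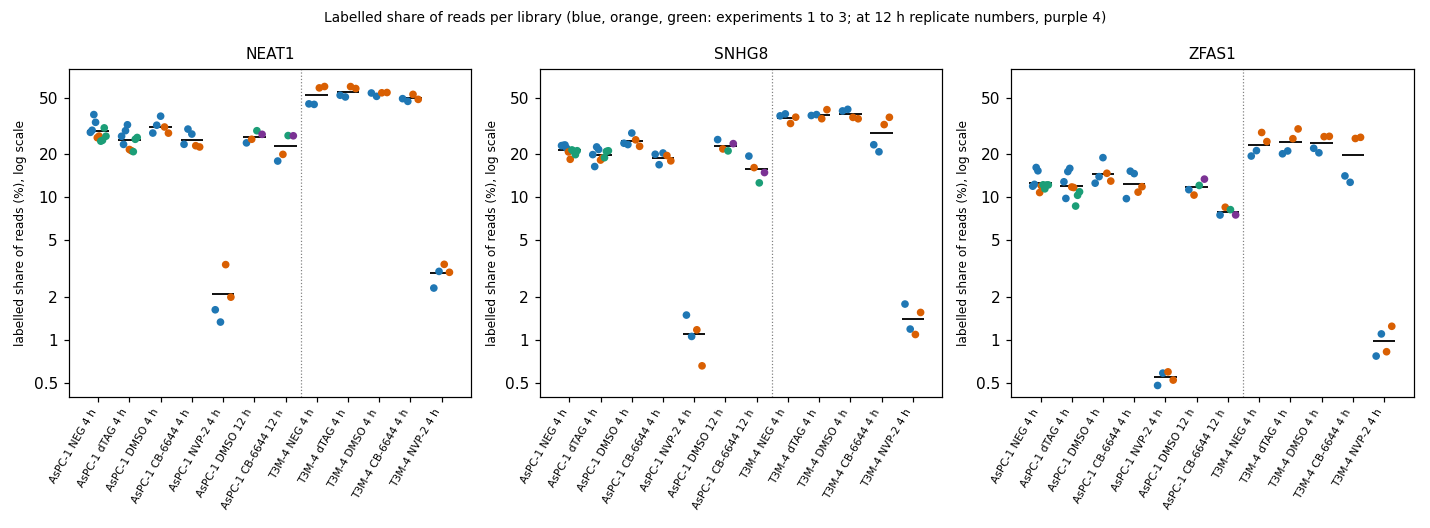
Labelled share in percent, on a log scale, of NEAT1, SNHG8 and ZFAS1 in every library. Points are libraries coloured by experiment (by replicate number at 12 h), bars are group means and the dotted line divides the lines. NVP-2 libraries lie between 0.480% and 3.39%, below every other library, and the ZFAS1 values of T3M-4 under CB-6644 split by experiment.

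After NVP-2 the new RNA of NEAT1, SNHG8 and ZFAS1 was lower relative to other genes in both lines, whereas MALAT1 did not pass the test in either. In such bulk libraries, fewer cells making an RNA and less of it per cell cannot be told apart. SNHG8 held 592, 822, 539, 941 and 635 T>C CPM in the DMSO libraries of AsPC-1 and 268, 227, 161 and 126 CPM under NVP-2. In T3M-4 it went from 1099, 1049, 816 and 878 CPM to 265, 136, 163 and 156 CPM. The groups did not overlap in either line. Under NVP-2 the share of all genes with such a gap was not counted, here or for the genes below. The log2 change of SNHG8 was −1.73 ± 0.27 (SE) in AsPC-1 and −2.35 ± 0.29 in T3M-4 (edgeR quasi-likelihood test, Benjamini-Hochberg adjusted p = 0.000882 and 0.000539).

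ZFAS1 held 755, 718, 877, 838 and 734 T>C CPM under DMSO and 318, 394, 197 and 232 CPM under NVP-2 in AsPC-1. The T3M-4 libraries gave 1460, 1622, 1198 and 1224 CPM against 338, 258, 283 and 353 CPM. Again no treated library reached a control, with log2 changes of −1.34 ± 0.23 (SE, edgeR adjusted p = 0.00139) and −2.10 ± 0.24 (adjusted p = 0.000417).

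NEAT1 fell as well, by counts from oligo(dT)-primed libraries summed to the gene, which do not tell its 9 annotated transcripts apart. Its T>C level was 764, 984, 527, 1045 and 672 CPM under DMSO and 299, 431, 234 and 235 CPM under NVP-2 in AsPC-1, and 1019, 897, 725 and 690 CPM against 289, 279, 267 and 204 CPM in T3M-4. The groups were apart in both lines, by −1.30 ± 0.27 (SE, edgeR adjusted p = 0.0039) and −1.61 ± 0.25 (adjusted p = 0.00146) on the log2 scale.

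MALAT1 held 117996, 107661, 91032 and 33853 T>C CPM under NVP-2 in AsPC-1, which overlaps the DMSO values given above. Its log2 change was 0.06 ± 0.36 (SE, edgeR adjusted p = 0.915). In T3M-4 it went from 73802 and 97705 CPM to 32362 and 22233 CPM in experiment 1, and from 47619 and 58246 CPM to 45363 and 42223 CPM in experiment 2. The groups did not overlap there, and the change of −0.90 ± 0.33 (SE) did not pass the edgeR test (adjusted p = 0.0667), although it did with DESeq2 (adjusted p = 0.0403), with the replicate number as a block (adjusted p = 0.0372), with no filter on low counts (adjusted p = 0.0411) and without NVP-2 replicate 1 of experiment 2. It was −1.53 in batch 1 alone (edgeR adjusted p = 0.0292) and −0.24 in batch 2 alone (adjusted p = 0.219). In T3M-4 these batches are the same libraries as experiment 1 and experiment 2. In all, 3 of the 4 genes were called lower in each line, where 17.6% of 11498 genes in AsPC-1 and 14.2% of 12242 in T3M-4 were. In either direction 30.5% and 26.7% of genes were called.

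These T>C values are relative to the other T>C reads of the library, and NVP-2 libraries held few of them. Scaled by the totals of all reads instead, the median gene changed by −3.06 in AsPC-1 and by −2.95 in T3M-4 on the log2 scale. All 4 genes were then called lower in both lines, MALAT1 by −2.87 and −3.89, NEAT1 by −4.29 and −4.46, SNHG8 by −4.68 and −5.21 and ZFAS1 by −4.33 and −4.98. MALAT1 thus lay near the median gene in AsPC-1, against the DMSO 4 h libraries, and the other 3 lay below it in both lines. The part of the unmeasured T>C background in this contrast between genes was not tested. The split of calls also changed with this scaling, from 1488 higher and 2018 lower to 8 higher and 10648 lower in AsPC-1, and from 1523 and 1740 to 10 and 10443 in T3M-4.

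The labelled share fell in all 4 genes in both lines. Under NVP-2 it was 1.1% ± 0.35 for SNHG8, 0.546% ± 0.055 for ZFAS1, 2.08% ± 0.90 for NEAT1 and 0.943% ± 0.169 for MALAT1 in AsPC-1 (SD, n = 4), and 1.41% ± 0.32, 0.987% ± 0.226, 2.93% ± 0.45 and 1.25% ± 0.60 in T3M-4. The log2 changes were −4.55, −4.73, −3.99 and −2.63 in AsPC-1 and −4.80, −4.62, −4.20 and −3.68 in T3M-4 (limma, adjusted p at most 0.000171), beside medians over all genes of −3.01 and −3.08. The limma calls covered 86.8% of all genes in AsPC-1 and 81.5% in T3M-4, so the call itself sets these genes apart little. With each library's shares centred on its median gene, SNHG8 and ZFAS1 were still called lower in both lines, whereas NEAT1 was not called and MALAT1 took the opposite sign in AsPC-1 (0.52). The share of all genes called in that fit was not counted. The order of the group means changed as well: ZFAS1 became the lowest of the 4 in both lines. In T3M-4 its range of 0.771% to 1.25% overlapped that of MALAT1, 0.598% to 1.82%. In experiment 1 there MALAT1 had the lower mean, 0.740% against 0.937%. The T>C background was not measured, so its part in these low shares and in their order cannot be told. The smallest count behind a share was 217 T>C reads, for SNHG8 in 1 AsPC-1 library (0.658%, 95% Wilson interval 0.577% to 0.752%, which covers counting error only).

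In all reads edgeR called 0 of the 4 genes in either line, with 0 at an unadjusted p under 0.05 and 0 by DESeq2, where 11.8% of genes in AsPC-1 and 5.16% in T3M-4 were called. SNHG8 held a mean of 297 ± 73.4 CPM under DMSO (SD, n = 5) and 252 ± 58.8 under NVP-2 (n = 4) in AsPC-1, and 305 ± 67.0 and 225 ± 78.8 (n = 4) in T3M-4. With the replicate number as a block the T3M-4 difference in SNHG8 was −0.50 ± 0.13 (SE, edgeR adjusted p = 0.0265). The share of all genes called with that block was not counted. All NVP-2 libraries of AsPC-1 came from batch 2 and all DMSO 4 h libraries from batch 1, so batch and treatment cannot be told apart in that contrast. Against the NEG libraries of batch 2 or the DMSO 12 h libraries of batch 2 the T>C decreases of NEAT1, SNHG8 and ZFAS1 were called too. MALAT1 held 43899 to 68744 T>C CPM in those DMSO 12 h libraries, 52685 to 120413 in the DMSO 4 h libraries and 33853 to 117996 under NVP-2. Its change of 0.06 was taken against the DMSO 4 h libraries and depends on that choice of control. The difference of the NVP-2 effect between the lines was called for 0 of the 4 genes, beside 0.851% of all genes (edgeR interaction term). At an unadjusted p under 0.05 stood 1 of the 4 (ZFAS1, −0.78 ± 0.31) and 1811 of 13159 genes. For MALAT1 the difference was −0.99 ± 0.49 (SE, edgeR adjusted p = 0.393).

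**Figure D3:**
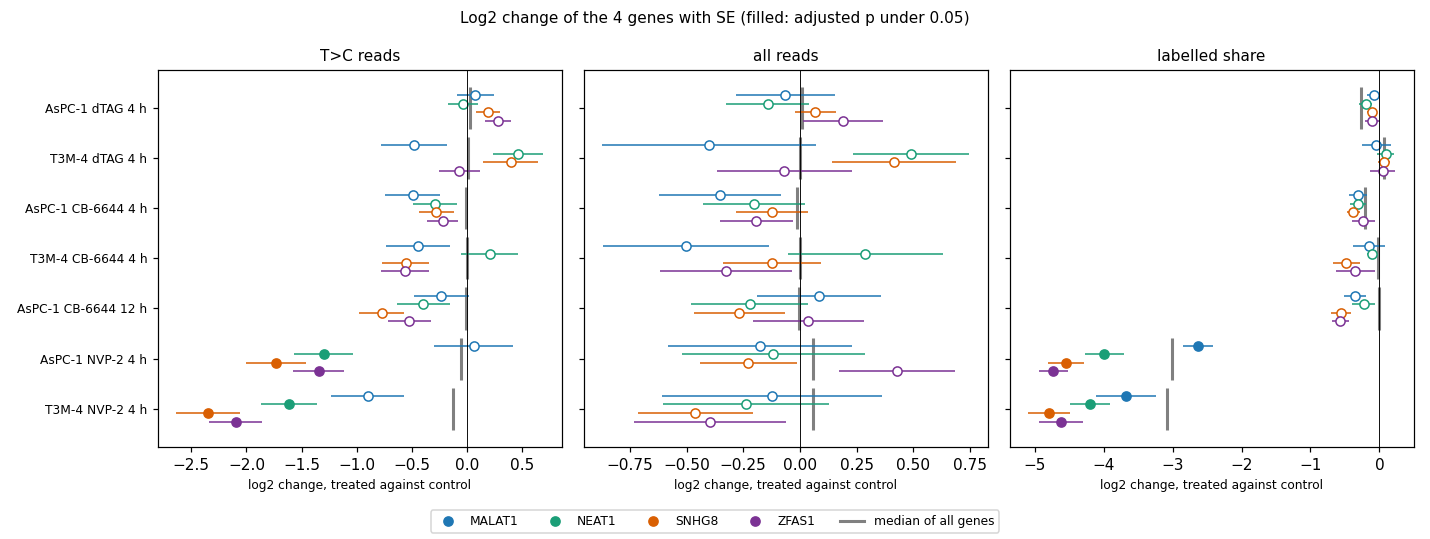
Log2 change of the 4 genes in T>C reads, all reads and labelled share for each treatment against its control, with the SE of each fit. Filled points have an adjusted p under 0.05, grey bars are the median of all genes and the x axes differ between panels. NEAT1, SNHG8 and ZFAS1 are filled in T>C reads under NVP-2 only, at −1.30 to −2.35, and no point is filled in all reads.

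CB-6644 left no gene of the 4 past the adjusted threshold in any of the 3 comparisons. The T>C differences were below 0 in all 3 for SNHG8, ZFAS1 and MALAT1, and those of the labelled share were below 0 for all 4 genes, whereas in all reads MALAT1 and ZFAS1 stood at 0.08 and 0.04 after 12 h. SNHG8 gave 545, 826, 739 and 672 T>C CPM under DMSO for 12 h and 491, 359, 314 and 453 CPM under CB-6644, so the groups did not overlap. Its log2 difference was −0.77 ± 0.21 (SE, edgeR adjusted p = 0.998). ZFAS1 gave 699, 817, 737 and 819 CPM under DMSO against 720, 467, 435 and 506 CPM, a difference of −0.52 ± 0.20 (adjusted p = 0.998). Of its 4 treated libraries 1 lay within the control range.

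The labelled shares at 12 h were apart for 3 genes. SNHG8 had 25.4%, 21.9%, 21.2% and 23.8% of its reads labelled under DMSO and 19.5%, 16.2%, 12.6% and 14.9% under CB-6644. ZFAS1 had 11.3%, 10.4%, 12.1% and 13.4% against 7.52%, 8.53%, 8.20% and 7.53%. MALAT1, the third, had 5.86%, 4.67%, 5.10% and 4.9% against 4.32%, 4.40%, 3.89% and 3.43%. On the log2 scale the differences were −0.56 ± 0.15, −0.57 ± 0.12 and −0.36 ± 0.16 (SE, limma adjusted p = 0.999, 0.944 and 0.999), and the median gene stood near 0. Every treated library lay below every control in 2.24% of 9070 genes for the share and in 1.5% for T>C CPM, where only SNHG8 of the 4 did so.

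After 4 h in AsPC-1, SNHG8 gave labelled shares of 20.1%, 16.9%, 20.5%, 19.6% and 18.0% under CB-6644 and 24.0%, 23.4%, 28.2%, 25.3% and 22.8% under DMSO. No treated library reached a control, and the difference was −0.38 ± 0.09 (SE, limma adjusted p = 0.114) beside a median of −0.21 over all genes. Such a gap was present in 9.88% of 8091 genes, so it is common in this comparison. In T>C CPM it was present in 0.309% of genes and in 0 of the 4. The T>C differences were −0.28 ± 0.16 for SNHG8, −0.22 ± 0.14 for ZFAS1, −0.29 ± 0.20 for NEAT1 and −0.49 ± 0.25 for MALAT1 (edgeR adjusted p = 0.98 for each). Scaled by the totals of all reads they were −0.48, −0.43, −0.49 and −0.68, beside a median of −0.21 over all genes, and were not called either (adjusted p at least 0.432).

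In T3M-4 the values under CB-6644 depended on the experiment. SNHG8 gave 461 and 613 T>C CPM in experiment 1 against 1099 and 1049 under DMSO, but 828.9 and 704.6 against 816 and 878 in experiment 2. The labelled share of SNHG8 followed, at a mean of 22.1% against 40.9% in experiment 1 and 34.4% against 35.97% in experiment 2. ZFAS1 gave 723 and 746 CPM against 1460 and 1622 in experiment 1, and 1149 and 1098 against 1198 and 1224 in experiment 2, where all treated libraries lay below all controls.

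The differences within experiments were −1.01 and −0.15 for SNHG8 and −1.07 and −0.11 for ZFAS1 on the log2 scale of T>C CPM. Pooled, they were −0.55 ± 0.21 and −0.56 ± 0.21 (SE, edgeR adjusted p = 0.994 for both). MALAT1 split in the same way, at −1.14 in experiment 1 and 0.21 in experiment 2, and NEAT1 gave 0.37 and −0.06. ZFAS1 was the only one of the 4 whose groups did not overlap in T>C CPM, which 1.81% of 9647 genes did, and for the labelled share it was 0 of 4 against 1.36% of genes.

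Taking dTAG and CB-6644 as 5 contrasts of 4 genes, edgeR called 0 of 20 tests in T>C reads, with 5 at an unadjusted p under 0.05 and 0 by DESeq2. Of these 5, 1 was under dTAG in AsPC-1, where 1413 of 11696 genes had such a p. The others were 2 under CB-6644 in T3M-4 (569 of 13444 genes) and 2 after 12 h in AsPC-1 (473 of 12204). For all reads edgeR called 0 of 20, with 0 at an unadjusted p under 0.05 and 0 by DESeq2. For the labelled share limma called 0 of 20, with 7 at an unadjusted p under 0.05. Of these 7, 3 came from CB-6644 at 4 h in AsPC-1, where 2715 of 13891 genes had such a p. Another 1 came from dTAG in AsPC-1 (6241 of 13931 genes), 2 from 12 h (611 of 14398) and 1 from CB-6644 in T3M-4 (485 of 15761). The adjusted calls over all genes were as few under CB-6644. In T>C reads 0% of genes were called in each of the 3 contrasts. In all reads it was 0% in both AsPC-1 contrasts and 0.0127% in T3M-4. In the labelled share it was 0.0144% after 4 h in AsPC-1 and 0% in the others. Neither the line difference nor the time difference of the CB-6644 effect was called for any of the 4 genes or in any other gene (0% each, edgeR interaction terms, 511 and 414 genes at an unadjusted p under 0.05). The difference in time for SNHG8, the effect at 12 h less that at 4 h, was −0.50 ± 0.26 (SE), which was not called.

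KLF5 degradation did not move the 4 genes past the threshold in either line. In AsPC-1, ZFAS1 had a lowest, median and highest T>C level of 521, 700 and 786 CPM in the 10 NEG libraries and of 641, 730 and 1054 CPM in the 10 dTAG libraries. The difference of 0.28 ± 0.12 (SE) was not called (edgeR adjusted p = 0.307), and it lay between 0.21 and 0.30 in each of the 3 experiments. With library set and experiment as a block it was 0.29 ± 0.08 (edgeR adjusted p = 0.0367). That difference came from a fit chosen after seeing the data, for which the share of all genes called was not counted. Scaled by the totals of all reads the difference of ZFAS1 was 0.05, against a median of −0.24 over all genes, and SNHG8 and MALAT1 changed sign, from 0.19 to −0.05 and from 0.08 to −0.15.

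NEAT1 had labelled shares of 24.8%, 27.7% and 38.1% (lowest, median, highest) in the NEG libraries of AsPC-1 and of 20.9%, 25.5% and 32.3% in the 9 dTAG libraries with usable totals. The log2 difference was −0.20 ± 0.10 (SE, limma adjusted p = 0.108), lower in each of the 3 experiments, and −0.21 ± 0.07 with the replicate block (adjusted p = 0.0359). The median gene had a difference of −0.27, and with shares centred on the median gene NEAT1 took the opposite sign (0.08). In the main fits of this contrast 2.4% of genes were called in T>C reads, 0.797% in all reads and 31% in the labelled share, and the 4 genes were at 0 in each. With the replicate block the share of all genes called was not counted.

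In T3M-4, NEAT1 gave 607, 778, 888 and 910 T>C CPM in the NEG libraries and 1586, 1139, 889 and 855 CPM after dTAG, a difference of 0.46 ± 0.23 (SE, edgeR adjusted p = 0.783). That difference was 0.97 in experiment 1 and −0.04 in experiment 2. SNHG8 gave 901, 899, 687 and 641 CPM against 1573, 1096, 774 and 745 CPM (0.40 ± 0.25), ZFAS1 differed by −0.07 ± 0.19 and MALAT1 by −0.48 ± 0.30. Called genes made up 0.834% in T>C reads, 0.0191% in all reads and 0.0127% in the labelled share, and 0.0426% had an effect that differed between the lines, with 0 of the 4 in each.

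Between the lines, under DMSO for 4 h, the labelled share was higher in T3M-4 for all 4 genes. The difference was 1.33 ± 0.16 (SE) for MALAT1, 0.77 ± 0.10 for NEAT1, 0.64 ± 0.11 for SNHG8 and 0.72 ± 0.17 for ZFAS1 on the log2 scale (limma adjusted p = 0.00134, 0.00208, 0.00687 and 0.0239). The DMSO libraries of T3M-4 lay above all those of AsPC-1 in each gene, and the median over all genes was 0.21, with 14.3% called. The share of all genes with such a gap was not counted. T>C reads as a share of all reads of a library were apart too, at 11.1% to 14.1% against 9.36% to 10.6%. The difference of MALAT1 was larger than that of 94.6% of genes. That of ZFAS1 was not called without either T3M-4 library of experiment 2 (0.67 and 0.66) or without replicate 2 of experiment 2 in AsPC-1 (0.68).

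T>C levels differed less. ZFAS1 was higher in T3M-4, at 1376 ± 202 (SD, n = 4) against 784 ± 69.5 CPM (n = 5), by 0.86 ± 0.15 (SE, edgeR adjusted p = 0.000613). SNHG8 was higher by 0.49 ± 0.19 (adjusted p = 0.0487), at 960 ± 135 against 706 ± 169 CPM, and kept the call only when replicate 1 of experiment 2 in AsPC-1 was left out (0.61). Without any other of the 9 libraries it was 0.36 to 0.54 and not called. MALAT1 and NEAT1 differed by −0.35 ± 0.26 and 0.11 ± 0.22, which did not pass the test, where 48.4% of 13044 genes did. Scaled by the totals of all reads, which moved the median gene from 0.11 to 0.29, ZFAS1 and SNHG8 were higher by 1.06 and 0.70, and both were called.

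In all reads MALAT1 was lower in T3M-4, at 79096, 105403, 30848 and 36827 CPM against 166668, 105739, 185731, 144670 and 198297 CPM in AsPC-1. The groups were apart only because 105403 lay just below 105739, and the change was −1.36 ± 0.38 (SE, edgeR adjusted p = 0.0105). With the T3M-4 libraries of batch 1 alone, which are those of experiment 1, it was −0.84 (edgeR adjusted p = 0.0542). The AsPC-1 libraries carry the same batch number, but whether a batch spans both lines was not tested. MALAT1 was the 1 gene of the 4 called in all reads, beside 55.7% of all genes. The lines thus differed in MALAT1 by a lower level of all reads and a higher labelled share, with T>C levels that overlapped.

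Of 21 other long noncoding snoRNA host genes, 17 had a row. After NVP-2, 5 of the 13 tested in AsPC-1 fell in T>C reads and 1 rose, and in T3M-4 9 of 16 fell and 0 rose. Their median log2 changes were −1.04 and −2.09, beside −0.05 and −0.12 over all genes, of which 17.6% and 14.2% were called lower and 12.9% and 12.4% higher. SNHG3 went from 116 ± 22.6 to 13.8 ± 8.66 CPM in AsPC-1 and from 178 ± 24.3 to 9.85 ± 3.53 CPM in T3M-4 (SD, n = 4 or 5), changes of −2.96 ± 0.42 and −4.10 ± 0.35 (SE, edgeR adjusted p = 0.000476 and 0.000268). EPB41L4A-AS1 fell by 2.61 ± 0.31 and 3.82 ± 0.48 on the log2 scale (adjusted p = 0.000139 and 0.000564). SNHG9 was the one that rose in AsPC-1 (0.80 ± 0.28, adjusted p = 0.0461). The labelled share fell in 15 of 15 and 16 of 16 of these genes, with medians of −4.18 and −5.09, where 86.7% and 81.4% of all genes were called lower and the medians were −3.01 and −3.08, so the counts set them apart little.

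**Figure D4:**
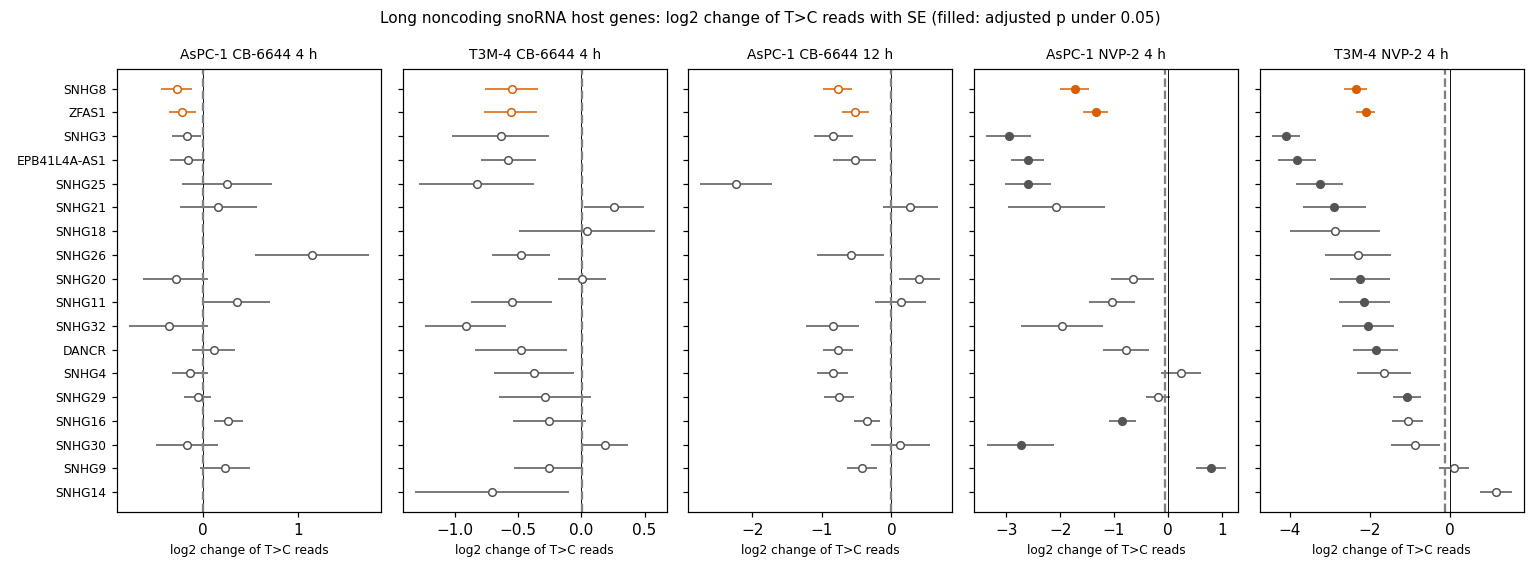
Log2 change of T>C reads with its SE for SNHG8 and ZFAS1 (orange) and the other long noncoding snoRNA host genes under CB-6644 and NVP-2. Filled points have an adjusted p under 0.05, dashed lines are the median of all genes, genes not tested are left blank and the x axes differ. Under NVP-2 in T3M-4 both orange points and 9 others are filled below 0, and no point is filled under CB-6644.

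Under CB-6644, 0 of these hosts were called by edgeR in any of the 3 contrasts, and 0 after 4 h in AsPC-1, 2 in T3M-4 and 6 after 12 h had an unadjusted p under 0.05. Of all genes, 482 of 11649, 569 of 13444 and 473 of 12204 had such a p. The median of these hosts was 0.03 after 4 h in AsPC-1, with 7 of 14 below 0. In T3M-4 it was −0.43, with 12 of 16 below 0, and after 12 h in AsPC-1 it was −0.56, with 10 of 14 below 0. Of all genes 50.8%, 49.6% and 51.2% lay below 0. After dTAG in AsPC-1 the median was 0.31 with 14 of 14 above 0, and DANCR was called, at 35.7 ± 4.63 CPM in NEG and 51.9 ± 10.1 CPM in dTAG libraries (SD, n = 10, log2 change 0.57 ± 0.11 SE, edgeR adjusted p = 0.00413). In that contrast 0.462% of all genes were called higher, 44.8% lay below 0 and the median gene stood at 0.03. These values are on the scale of T>C reads. Scaling by the totals of all reads moved the median gene to −0.24, and values of these hosts on that scale are not given here.

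Protein-coding hosts of snoRNAs changed in both directions after NVP-2, with 9 of 25 lower and 2 higher in AsPC-1 and 9 lower and 1 higher in T3M-4 (medians −0.26 and −0.73), beside the 17.6% lower and 12.9% higher of all genes in AsPC-1 and the 14.2% and 12.4% in T3M-4. NOP56, itself a protein of box C/D snoRNA particles, fell by 2.55 ± 0.25 and 2.85 ± 0.26 on the log2 scale (SE, edgeR adjusted p = 5.75e-05 and 0.000268), and EIF4A2, a translation initiation factor, fell by 2.55 ± 0.21 in AsPC-1. TAF1D fell by 2.48 ± 0.24 in T3M-4. EEF1B2 and TPT1 rose by 0.77 ± 0.23 and 0.67 ± 0.22 in AsPC-1, and SF3B3, a splicing factor, rose by 0.85 ± 0.22 in T3M-4. Hosts of either kind were thus not alike in direction on this scale, which is relative to the other T>C reads. Under CB-6644, 0 of the 25 were called by edgeR in each contrast, with 1 after 4 h in AsPC-1, 3 in T3M-4 and 5 after 12 h at an unadjusted p under 0.05. Of all genes, 482 of 11649, 569 of 13444 and 473 of 12204 had such a p.

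Among 8 other long noncoding RNAs with a row, MIR17HG fell by 3.37 ± 0.67 and 4.34 ± 0.76 (SE) after NVP-2 in AsPC-1 and T3M-4, UCA1 fell by 1.64 ± 0.29 in T3M-4 and LINC00963 rose by 1.11 ± 0.26 in AsPC-1, with 7 tested in each line. Of the proteins that make up or assemble snoRNA particles, 2 of 18 were higher and 4 lower in AsPC-1, and 1 higher and 2 lower in T3M-4, where 30.5% and 26.7% of all genes were called in either direction. NHP2, of H/ACA particles, rose by 3.34 ± 0.34 and 2.56 ± 0.42, and NOP10, its partner there, by 3.25 ± 0.30 in AsPC-1, while NOLC1 fell by 0.86 ± 0.18 in AsPC-1 and TGS1 by 1.55 ± 0.30 in T3M-4. Of the 11 paraspeckle and speckle proteins 1 was higher and 3 lower in AsPC-1, and 3 higher and 4 lower in T3M-4. NONO, a paraspeckle protein that binds NEAT1, rose by 0.92 ± 0.20 and 1.85 ± 0.25 relative to the other T>C reads, where NEAT1 itself fell. The labelled share was called lower in both lines for all 11, NONO included. Of 10 factors of nonsense-mediated decay, the pathway that degrades many spliced host RNAs, SMG8 fell in AsPC-1 (−3.62 ± 0.61) and no other was called there, and 1 was higher and 2 lower in T3M-4. The same backgrounds of 30.5% and 26.7% apply to each of these lists, and nothing particular to a list is read from its count. Each rise or fall named for these lists is relative to the other T>C reads of the library. In the labelled share 0 of their genes were called higher after NVP-2 in either line, where 0.0497% and 0.0575% of all genes were.

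Between the lines, 9 of 16 other long noncoding hosts were higher in T3M-4 in T>C reads and 0 lower, with a median of 0.84 beside 0.11 over all genes, of which 26.8% were called higher and 21.6% lower. SNHG14 held 58.8 ± 14.8 CPM in T3M-4 (SD, n = 4) and at most 0.483 CPM in an AsPC-1 DMSO library, and SNHG26 held 90.5 ± 13.6 CPM against 1.12 ± 0.93 (n = 5). Protein-coding hosts were higher in 11 of 25 cases and lower in 1 (EEF1B2), against the same background.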

How the data were processed

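SLAM-seq was performed by the authors in 62 libraries of 2 cell lines. Per the study's methods, 3′ QuantSeq libraries primed with oligo(dT) were sequenced as single reads of 100 bases, and slamdunk with default settings (version not given in the sources used here) counted reads over 3′UTR exons of GENCODE on hg38, summed to genes. The deposited tables hold these counts unnormalized, one of T>C reads and one of all reads for each line, with 29794 rows each. The tables also hold 18 empty columns, which were not used. The column of all reads of 1 AsPC-1 dTAG library was left out, because its values equal the T>C column of another library and lie below that library's own T>C counts in 8047 genes. Labelled shares and all reads therefore rest on 61 libraries.

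Counts were filtered on low values, scaled by TMM and tested with edgeR 4.0.16 (quasi-likelihood) in R 4.3.3, with Benjamini-Hochberg adjustment over all genes tested and a threshold of 0.05. Log2 labelled shares, with pseudocounts of 0.5 for T>C reads and 1 for all reads, were tested with limma 3.58.1. DESeq2 1.42.0 was an alternative, as were other scalings, filters, pseudocounts, blocks, batches, control groups and each library left out (each experiment in turn for dTAG in AsPC-1). Scripts were tested on simulated data. Library sets came from clustering the 500 most variable genes of all reads in AsPC-1, and the library without usable all reads joined the set whose mean T>C profile it correlated with best. CPM spread was taken as log2(CPM + 0.5), over genes with a mean of at least 100 reads, and percentiles of the share over genes with a mean of at least 1000 reads. Depth differs between libraries by the totals given above, and the interval printed for a share covers counting error only.

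Groups came from the labels. The main fits had no block. All listed genes were named, with at most 2 called genes of smallest p per direction, contrast and list from the other lists, and the 5 genes most like MALAT1 in each line. The listed genes and the lists were chosen with earlier results of these data known. Same-numbered experiments deviated together across the groups compared, with correlations of 0.411 to 0.634 for the 3 pairs of AsPC-1 dTAG and 0.331 to 0.650 for the 4 pairs of CB-6644 at 12 h. They were 0.53 and 0.504 for dTAG and CB-6644 in T3M-4, 0.457 for CB-6644 at 4 h in AsPC-1 and 0.316 for NVP-2 in T3M-4, each over 2 pairs. For NVP-2 in AsPC-1 the value was −0.0045, so the numbers were not taken to pair those samples. Sequences and promoters came from RefSeq (GRCh38.p14) and snoRNA coordinates from the hg38 annotation. The promoter windows searched spanned 250 bases before to 50 bases after the start.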

Additional observations from a re-analysis of the deposited data

Results flagged for a closer look

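In 4 of 96 groups of a gene and a measure, 1 library lay apart from the rest of its group by Dixon's criterion, and chance flags about 1 in 20. MALAT1 accounted for 3 of them in T>C CPM. It stood at 101796 CPM in AsPC-1 NEG experiment 1 replicate 1, where the other 9 libraries held 42295 to 66283 CPM. In AsPC-1 CB-6644 4 h experiment 1 replicate 1 it stood at 103924 CPM, against 47048 to 63018 CPM in the other 4. In T3M-4 dTAG experiment 1 replicate 2 it stood at 84686 CPM, against 44891 to 48461 CPM in the other 3. The fourth was the labelled share of NEAT1, at 51.1% in T3M-4 DMSO experiment 1 replicate 2, where the other 3 held 53.9% to 54.3%.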

How the results depend on the processing

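Of 296 recomputed counts of called genes among the 4, 280 stayed within 1.5 times the value reported and 16 moved. The T>C decreases of NEAT1, SNHG8 and ZFAS1 after NVP-2 were called under every alternative run in both lines. For T>C reads in AsPC-1 dTAG, the block of library set and experiment, chosen after seeing the data, called 1 gene (ZFAS1) in place of 0. In the line comparison of T>C reads, 1 gene was called without a filter on low counts and 1 with the T3M-4 libraries of batch 1, in place of 2, and leaving out 1 library gave 1 to 2. With the replicate block, 1 gene was called in all reads of T3M-4 NVP-2 (SNHG8) and 1 in the labelled share of AsPC-1 dTAG (NEAT1), both in place of 0, and it changed no other count by more than 1.5 times. The block of library set and experiment also called 1 gene (NEAT1) in the latter. With that pairing MALAT1 after NVP-2 in T3M-4 was also called in T>C reads (edgeR, adjusted p = 0.0372). For the fits with a block the share of all genes called was not counted, nor for those with centred shares. Centring the shares on the median gene called 2 genes (SNHG8 and ZFAS1) in place of 4 in AsPC-1 NVP-2 and 2 in T3M-4 NVP-2. Under it MALAT1 reversed in AsPC-1, to 0.52 (adjusted p = 0.178, limma). Apart from that value, 262 of 282 recomputed values of single called genes kept direction and call and 19 kept the direction only. For ZFAS1 the line difference in share lost its call in several fits, with adjusted p up to 0.115. Causes were not tested. The smallest T>C count of the 4 genes in a library was 217 reads.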

Other observations

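SNHG3, a snoRNA host outside the listed genes, had a higher labelled share than any of them, at 53.6% ± 3.82 in AsPC-1 (SD, n = 5) and 71.1% ± 5.06 in T3M-4 (SD, n = 4) under DMSO for 4 h. It was picked out after its values were seen. After NVP-2 its share was 1.49% ± 0.85 and 3.06% ± 1.99 (SD, n = 4). In T3M-4 under CB-6644 its T>C level ran from 51.1 to 188 CPM over 4 libraries.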
